A study of Mus musculus with 6 samples.

Results

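The voltage-gated calcium channel beta subunits are encoded by 4 genes in the mouse, Cacnb1, Cacnb2, Cacnb3 and Cacnb4. They were taken from the ribosome profiling table of round spermatids by gene symbol, and 3 of the 4 had a row, among 22770 rows in all. Cacnb3 is not analysed here. The family was selected on the FPKM of Cacnb4 in these same samples, which differed between the genotypes, so the genotype differences of its members are given below as a description, with no test.

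A beta subunit is a cytoplasmic protein that binds the pore-forming alpha1 subunit of a high-voltage-activated calcium channel. It helps the channel reach the cell surface and sets how readily it opens. Beta subunits carry an SH3 domain and a guanylate kinase-like domain, the arrangement of the MAGUK scaffold proteins. Cacnb1 is best known from skeletal muscle, Cacnb2 from the heart and Cacnb4 from the brain, where its loss causes the lethargic mouse phenotype. In sperm, the calcium entry studied most is carried by the separate CatSper channel.

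The libraries hold RNA fragments shielded by ribosomes in round spermatids, haploid germ cells of the mouse testis that follow meiosis. There are 3 libraries of wild-type mice and 3 of the genotype Eif5a SKO. EIF5A is a translation factor that helps ribosomes through difficult stretches of coding sequence. The labels do not spell out SKO, and the sources used here give no Cre driver, strain or age. The values are FPKM, footprints per kilobase of transcript and scaled to the mapped footprints of the library, so levels of different genes are compared per length. Footprint density reflects the amount of mRNA as well as its translation, and matched RNA levels are not analysed here. Nothing in the labels ties a library to 1 animal, so the spread between libraries may be partly technical.

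Eif5a, the targeted gene, fell from a wild-type mean of 48.3 ± 13.9 FPKM to an SKO mean of 2.25 ± 0.642 FPKM (SD, n = 3 per group; limma, adjusted p = 0.00641; two-sided exact permutation p = 0.1, the smallest value that 3 against 3 allows). The relative depth of the libraries, read from the steps between low values, ran from 0.503 to 1. All 10 markers of round spermatids were listed above 0 in every library, with a summed density of 765 to 1402 FPKM in wild type and 1065 to 2199 FPKM in SKO. Testing covered the 15578 rows whose mean reached 1 FPKM. At an adjusted p under 0.05 (limma, two-sided) SKO was higher in 17 of them, or 0.109%, and lower in 3, or 0.0193%. These counts depended on the scaling: 119 were higher and 40 lower under TMM-type scaling, which divides each library by a trimmed mean of ratios, 248 and 198 under quantile normalization, and 315 and 202 with protein-coding sums made equal. In all, 6, 10 and 4 rows were called without wild-type replicates 1, 2 and 3, and 17, 27 and 9 without SKO replicates 1, 2 and 3. Eif5a was called in each of these fits.

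Cacnb4 (gene 12298, GRCm38 chromosome 2, 52428320 to 52676609) was the beta subunit with the fewest footprints in wild type and the most in SKO. Its density was 0.311, 0.376 and 0.194 FPKM in wild-type replicates 1, 2 and 3. In SKO replicates 1, 2 and 3 it was 5.83, 10.5 and 9.49 FPKM. The groups lay far apart: the lowest SKO value was 15.5 times the highest wild-type value. The means were 0.294 ± 0.0924 and 8.61 ± 2.46 FPKM (SD, n = 3 per group), a ratio of 29.3. On the log2(FPKM + 1) scale, which understates differences of low genes, SKO was higher by 2.86 (SE 0.34). In 10.9% of the tested rows all SKO libraries lay above all wild-type libraries, and since this contrast was used to choose the family nothing is read from that share. Ranked by the difference on this scale, Cacnb4 was at place 39 of the 15578 rows. It reached the mean of 1 FPKM needed for testing only through its SKO values. The rank uses the contrast that chose the family, so nothing is read from it either. With each library left out in turn the difference ran from 2.71 to 3.09. The median over all tested rows was 0.13, and 0.0028 under TMM-type scaling; Cacnb4 was then higher by 2.75.

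The wild-type level of Cacnb4 was near the floor of these data. Among the 13810 protein-coding rows, 2.66% had a wild-type mean at or below that of Cacnb4, whereas 74.3% had an SKO mean at or below its SKO mean. Genes without a row, such as Cacnb3, are not counted in these shares. The absolute depth is unknown. At the median, a row of low density gained 0.114 FPKM with each read in the deepest library and 0.227 FPKM in the shallowest. At that rate the wild-type values of Cacnb4 would correspond to 2.14, 2.51 and 1.07 reads, and the SKO values to 51.1, 46.3 and 64.1 reads. These are orders of size and not read counts, because the gain per read depends on transcript length. The ratio of 29.3 thus rests on a denominator near the floor, which may be few reads, while the SKO level lies well above it.

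Cacnb1 (gene 12295, chromosome 11, 98001508 to 98023034), the subunit that couples the skeletal muscle channel to calcium release, was at 2.32, 5.34 and 3.37 FPKM in wild-type replicates 1, 2 and 3. Its SKO values were 1.40, 5.49 and 1.46 FPKM. SKO replicate 2 was the highest of all 6 libraries and the other SKO libraries were the lowest of them, so the groups overlapped. The means were 3.68 ± 1.53 and 2.79 ± 2.34 FPKM (SD, n = 3 per group). The difference on the log2(FPKM + 1) scale was -0.42 (SE 0.47), smaller than its error, and it was -0.89 without SKO replicate 2. It was -0.18 without wild-type replicate 2, -0.18 without SKO replicate 1 and -0.19 without SKO replicate 3.

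Cacnb2 (gene 12296, chromosome 2, 14603861 to 14988811), the main beta subunit of heart muscle, was at 5.17, 2.73 and 1.28 FPKM in wild-type replicates 1, 2 and 3. In the SKO replicates it had 2.84, 3.18 and 2.37 FPKM. All SKO values lay inside the wild-type range. The means were 3.06 ± 1.96 and 2.80 ± 0.406 FPKM (SD, n = 3 per group). The difference on the log2(FPKM + 1) scale was 0.01 (SE 0.41). Its sign was not fixed: it was -0.13 under TMM-type scaling, 0.37 without wild-type replicate 1 and -0.34 without wild-type replicate 3. It lies on the same chromosome as Cacnb4.

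**Figure D1:**
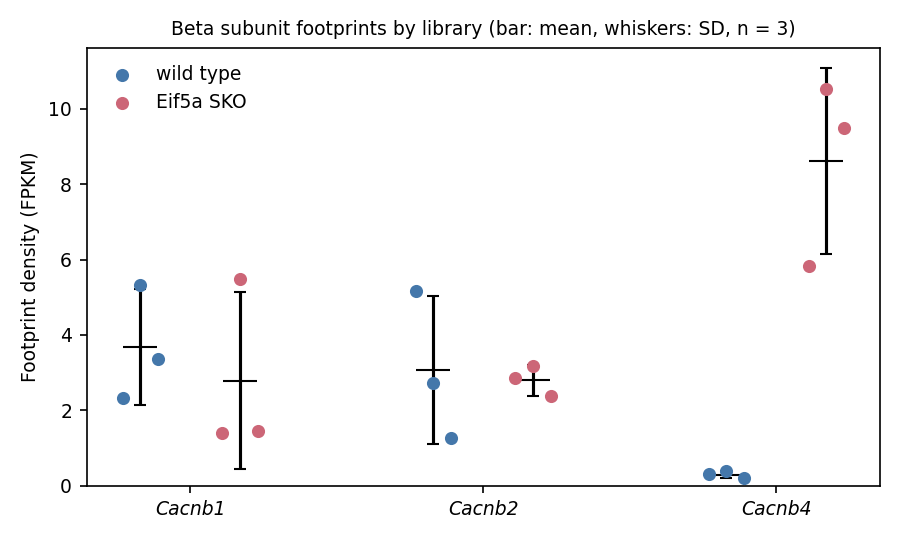
Footprint density in FPKM of the 3 beta subunit genes, with 1 point per library, wild type in blue and Eif5a SKO in red, the bar at the mean and whiskers of 1 SD (n = 3 per group). The groups overlap for Cacnb1 and Cacnb2, while Cacnb4 lies between 0.194 and 0.376 FPKM in wild type, against between 5.83 and 10.5 FPKM in SKO.

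The order of the subunits within a library differed between the genotypes. In wild type Cacnb4 was the lowest of the 3 in every library. Cacnb1 was above Cacnb2 in 2 of the 3 libraries, and their mean difference in log2(FPKM + 1) level, 0.27, was smaller than its spread (SD 1.01, n = 3), so these neighbours were not told apart. Cacnb2 was above Cacnb4 by 1.54 (SD 0.66, n = 3). In SKO Cacnb4 was the highest in every library, above Cacnb2 by a level difference of 1.31 (SD 0.43) and above Cacnb1 by 1.48 (SD 0.63). Cacnb1 and Cacnb2 were again within their spread (-0.17, SD 0.70).

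A share within a library does not depend on how the libraries are scaled to each other. Cacnb4 made up 3.98%, 4.46% and 4.00% of the summed FPKM of the 3 subunits in the wild-type replicates. In the SKO replicates its share was 57.8%, 54.8% and 71.2%. The mean share of Cacnb4 was 4.15% ± 0.268 in wild type and 61.3% ± 8.74 in SKO (SD, n = 3 per group). The narrow wild-type range says nothing about constancy, since it rests on a Cacnb4 level near the floor, which may be few reads. The FPKM of Cacnb4 itself varied 1.94-fold among these libraries. Cacnb1 held 54.2% ± 21.4 in wild type and 17.8% ± 9.45 in SKO, and Cacnb2 held 41.7% ± 21.5 and 20.9% ± 6.41. The shares of a library add up to the whole, so a higher share of Cacnb4 lowers the others. These lower shares are not read as a fall of Cacnb1 or Cacnb2, whose FPKM overlapped between the genotypes. The summed density of the 3 genes was 7.03 ± 1.92 FPKM in wild type, against 14.2 ± 4.62 FPKM in SKO. The lowest SKO sum, 10.1 FPKM, was above the highest wild-type sum, 8.45 FPKM. Neither Cacnb1 nor Cacnb2 had a higher mean FPKM in SKO, so the higher mean sum comes from Cacnb4, on which the family was selected.

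**Figure D2:**
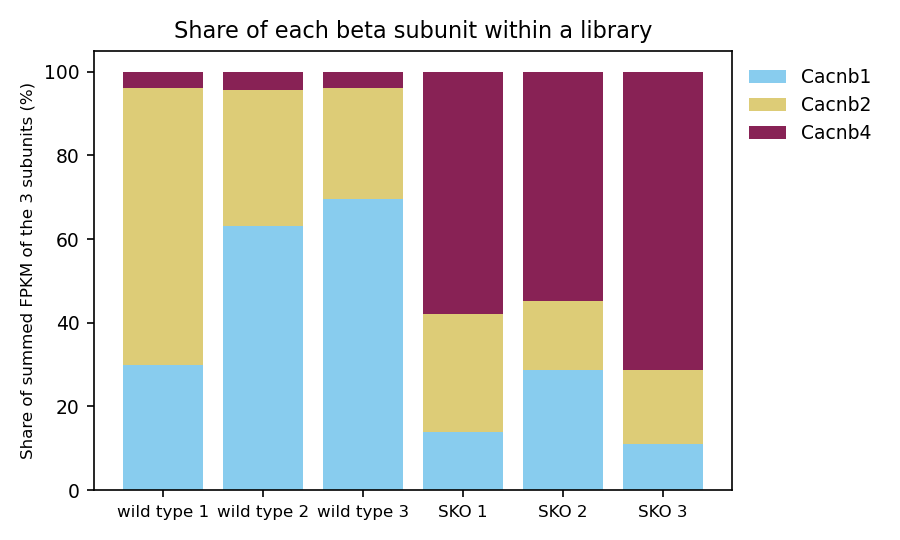
Share of the summed FPKM of Cacnb1, Cacnb2 and Cacnb4 held by each gene, in percent, with 1 stacked bar per library. Cacnb4 holds 3.98% to 4.46% in the wild-type libraries and 54.8% to 71.2% in the SKO libraries.

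The table gives 1 value per gene symbol, so transcripts from different start sites of Cacnb4 are not separated. RefSeq (GRCm38.p6) has promoter windows for 3 Cacnb4 starts. For 2 of them the 250 bases before the start were rich in G and C (79.6% and 71.2%, against a median of 52.4% over 32851 windows), and they lie within 0.466 and 0.75 kb of the gene's 5′ end. The third start is 118 kb inside the gene, at 48.8% G and C, and its 250 bases before the start are shown because it is the one start far from the gene's 5′ end. They lie at chr2:52558612-52558861 on the minus strand. Capitals mark the letters CCAAT, whose use as a promoter element was not tested.

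Cacnb4 internal start: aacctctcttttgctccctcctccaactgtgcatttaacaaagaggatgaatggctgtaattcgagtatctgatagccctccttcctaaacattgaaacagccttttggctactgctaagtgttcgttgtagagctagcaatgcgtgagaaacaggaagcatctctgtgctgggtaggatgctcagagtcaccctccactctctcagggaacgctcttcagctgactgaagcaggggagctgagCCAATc

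Both strands were searched for CCAAT, which occurred in this window and in 33.9% of all windows. The letters TGACG, part of the site bound by the spermatid regulator CREM and its relatives and present in 17.8% of all windows, was found in no Cacnb4 window and in 1 window among those of the other beta subunits, before the internal start of Cacnb2. The TATA box letters TATAAA, present in 12.4% of all windows, was found in none of the windows of the 3 genes. The data do not show which start was in use.

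Rows that overlap Cacnb4 were read next, because footprints of overlapping genes can be counted for both. The pseudogene Bloc1s2-ps, whose 884 bases all lie within Cacnb4, had 4.31, 6.52 and 7.45 FPKM in wild type, against 4.96, 9.35 and 6.60 FPKM in SKO (log2 difference 0.16, SE 0.37, limma adjusted p = 0.919). Its values overlapped between genotypes. The long non-coding RNA A430018G15Rik, which overlaps the 3′ end of Cacnb4 by 6571 bases, had 0.102, 2.19 and 2.95 FPKM in wild type, against 0.188, 0.637 and 0.196 FPKM in SKO (log2 difference -0.86, SE 0.50, limma adjusted p = 0.576). Neither row passed the test, and in neither were all SKO values above the wild-type ones. Whether the counting used the strand is unknown, so reads of overlapping rows cannot be told apart.

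The neighbouring protein-coding genes named here did not pass the test either. Stam2, an endosomal sorting gene and the nearest at 15.6 kb, had 8.85 ± 2.97 FPKM in wild type, against 12.3 ± 4.31 FPKM in SKO (limma, SD, n = 3; adjusted p = 0.742). Fmnl2, a formin gene, was under the mean of 1 FPKM needed for testing, at 0.508 ± 0.152 and 0.331 ± 0.168 FPKM. On the other side Rif1, a gene of replication timing and DNA repair, had 10.4 ± 3.88 and 5.50 ± 4.09 FPKM (limma adjusted p = 0.538). Nmi, an interferon-inducible gene, had 1.77 ± 1.40 and 1.29 ± 0.992 FPKM. Rbm43, which encodes an RNA-binding protein, had 2.64 ± 0.261 and 3.79 ± 0.861 FPKM (limma adjusted p = 0.700). Its SKO values all lay above the wild-type ones, which held for 10.9% of all tested rows.

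**Figure D3:**
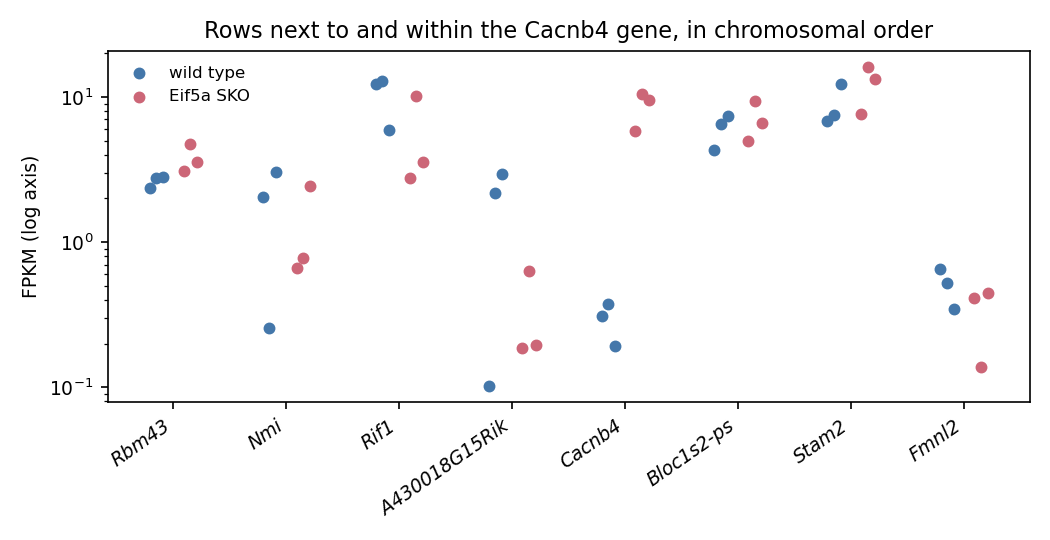
Footprint density in FPKM, on a log axis, of nearby protein-coding genes on each side of Cacnb4, of the 2 rows that overlap it and of Cacnb4 itself, with 1 point per library (wild type blue, Eif5a SKO red). Besides Cacnb4, Rbm43 is the row whose SKO points all lie above the wild-type points, from 3.07 against at most 2.82 FPKM, as in 10.9% of all tested rows.

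The rest of the channel was examined from lists of the other subunits and of partners of beta subunits, together with MAGUK relatives. The MAGUK relatives only share the domain arrangement of beta subunits and made up 24 of the 63 symbols listed. Of the 63, 36 had a row and 31 were tested, 12 of these MAGUK relatives. None passed the test (0 of 31, limma, adjusted p under 0.05, against 0.128% of all tested rows). With a share that low, 0 calls in so short a list is not read as a lack of change. The same holds for each list below. An unadjusted limma p under 0.05 was found for 2, both MAGUK relatives, against 11% of all tested rows. None passed under TMM-type scaling either, where 1.02% of all tested rows did. The median log2 difference of all 31 was 0.06, against 0.13 over all tested rows.

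Among the pore-forming alpha1 subunits 6 of 10 were tested and 0 passed, against 0.128% of all tested rows. Their log2 differences ran from -0.0002 to 0.37. Cacna1a, the pore of the neuronal P/Q-type channel with which Cacnb4 is best known to pair, had 3.95, 4.41 and 6.95 FPKM in wild type, against 6.67, 2.27 and 9.20 FPKM in SKO. Its groups overlapped, and the log2 difference of 0.09 (SE 0.47) turned to -0.03 under TMM-type scaling. Cacna1d, an L-type pore, had 3.19 ± 1.48 and 4.49 ± 1.95 FPKM (SD, n = 3; limma adjusted p = 0.789). Cacna1h, a T-type pore that does not require a beta subunit, had 3.47 ± 1.29 and 4.37 ± 1.20 FPKM. Per length, the wild-type levels of these 3 pore genes, 3.19 to 5.10 FPKM, were near the 3.68 and 3.06 FPKM of Cacnb1 and Cacnb2 and above the 0.294 FPKM of Cacnb4.

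The alpha2delta subunits, which lie outside the membrane and promote channel trafficking, had 2 tested members and neither passed, against 0.128% of all tested rows. Cacna2d3 had 5.40, 3.44 and 4.37 FPKM in wild type, against 2.24, 2.21 and 2.64 FPKM in SKO. The groups did not overlap, with SKO below, which held for 4.78% of all tested rows (log2 difference -0.67, SE 0.32, limma adjusted p = 0.486). Cacna2d1 had 2.72 ± 0.891 and 1.48 ± 0.871 FPKM. Of the gamma subunits and relatives, 2 were tested and 0 passed: Cacng8 had 2.34 ± 1.11 and 2.37 ± 0.215 FPKM, and Cacng4 had 1.38 ± 0.667 and 0.936 ± 1.04 FPKM. Tmem37, a gamma-like gene, was under the limit for testing, at 0.544 ± 0.473 and 1.15 ± 0.705 FPKM.

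Partners and inhibitors of beta subunits had 7 tested members, and 0 passed, against 0.128% of all tested rows. Tspoap1, a RIM-binding protein gene, had 3.10 ± 0.399 and 2.74 ± 0.834 FPKM. Stac3, needed for the skeletal muscle channel, had 2.58 ± 2.11 and 2.96 ± 1.25 FPKM, and Rims2, a presynaptic scaffold gene, had 2.27 ± 1.41 and 2.06 ± 1.44 FPKM. The short form of the Cacnb4 protein is known to bind HP1 gamma, encoded by Cbx3, and the full-length protein to act with a PP2A subunit encoded by Ppp2r5d in the nucleus. Cbx3 had 6.78, 2.97 and 1.85 FPKM in wild type, against 4.64, 12.9 and 5.44 FPKM in SKO, with overlapping groups (log2 difference 0.84, SE 0.49, limma adjusted p = 0.576). Ppp2r5d had 1.78 ± 0.562 and 1.46 ± 0.957 FPKM.

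**Figure D4:**
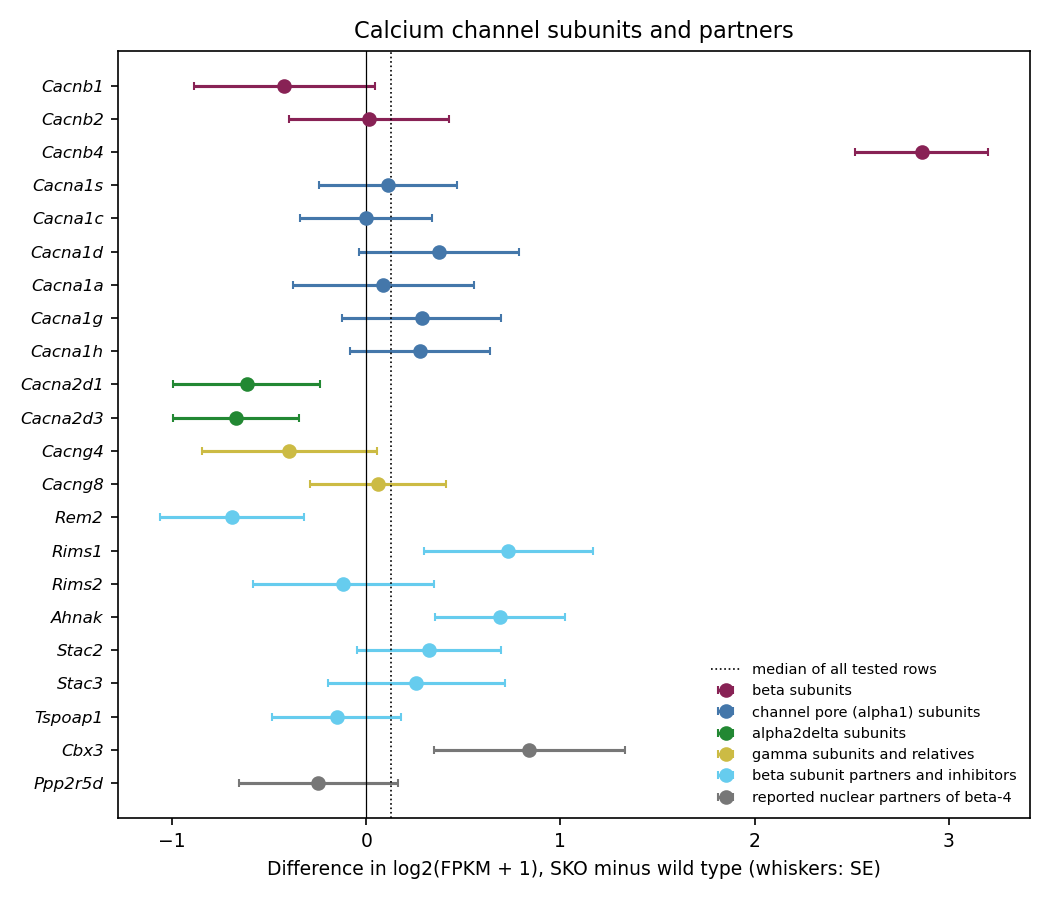
Difference in log2(FPKM + 1) between Eif5a SKO and wild type, with whiskers of 1 SE, for the beta subunits and the tested other subunits and partners, coloured by list. The dotted line is the median of all tested rows, 0.13. Cacnb4, the gene on which the family was selected, is at 2.86, and the other genes plotted lie between -0.69 and 0.84.

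The MAGUK relatives, scaffold proteins with the same pair of domains, had 12 tested members and 0 passed, against 0.128% of all tested rows. Mpp5, a cell polarity gene, was the most densely covered at 25.8 ± 3.75 FPKM in wild type, against 18.5 ± 10.6 FPKM in SKO (SD, n = 3). The tight junction gene Tjp1 had 8.19 ± 2.58 and 9.39 ± 5.33 FPKM. Over all the channel, partner and MAGUK lists, 3 tested genes had every SKO library above every wild-type library. The reverse held for 3, and the shares of all tested rows were 10.9% and 4.78%. They are named after their values were seen: Ahnak, Magi3 and Mpp6 above, and Cacna2d3, Rem2 and Dlg1 below. Mpp6 had 1.96 ± 0.503 and 6.07 ± 2.93 FPKM (limma adjusted p = 0.342), and Dlg1, the neuronal and epithelial scaffold SAP97, had 8.51 ± 1.66 and 4.35 ± 1.38 FPKM (limma adjusted p = 0.423). Rem2, a GTPase that binds beta subunits and inhibits channels, had 2.33 ± 1.19 and 0.998 ± 0.319 FPKM (limma adjusted p = 0.540).

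The genes whose pattern over the 6 libraries was nearest to that of Cacnb4 were sought among 10533 protein-coding rows, by the root mean square distance between mean-centred log2(FPKM + 1) values. H2al1c, a spermatid histone variant gene of the X chromosome, was nearest at a distance of 0.206. It shares its values with other rows of its family. It had 1.37, 0.904 and 1.22 FPKM in wild type, against 10.4, 16.9 and 12.1 FPKM in SKO. Tfrc, the transferrin receptor gene, followed at 0.279, with 2.50, 2.68 and 2.88 FPKM and 14.5, 24.9 and 17.3 FPKM. Ube2dnl2, a gene of the ubiquitin-conjugating enzyme family, was at 0.312, the Y-linked gene Sly at 0.324 and the histone gene H4c2 at 0.373. All 5 were low in wild type and high in SKO, as the measure requires. In wild type these genes had means from 1.16 to 5.40 FPKM, above that of Cacnb4. The genes nearest to Cacnb1 were Relch at 0.129, Rsf1 at 0.134 and Slx4 at 0.145. Each of these was highest in replicate 2 of both genotypes, as Cacnb1 was.

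Summed markers of 3 kinds of cells outside the germ line lay higher in the SKO libraries, as Cacnb4 did, but few of the single markers passed the test. The summed density of the 4 Sertoli cell markers with a row was 12.9 to 24.5 FPKM in wild type, against 59.5 to 81.8 FPKM in SKO. Of these, 0 passed the test, against 0.128% of all tested rows. In 3 all SKO values lay above the wild-type ones, against 10.9% of all tested rows, while Amhr2 overlapped. For the 7 of 10 Leydig cell markers with a row the sum was 13.6 to 18.6 and 61.2 to 118 FPKM. Again 0 passed, and 5 had all SKO values above the wild-type ones, against the same 10.9%, while Star and Lhcgr overlapped. For the 4 of 8 peritubular muscle and matrix markers with a row the sum was 4.54 to 6.19 and 25.8 to 39.2 FPKM. All 4 had SKO values above the wild-type ones, against 10.9% of all tested rows, and 1 passed the test as higher, against 0.109% of all tested rows. This was the matrix gene Dcn (1.11 ± 0.289 and 8.96 ± 1.33 FPKM, SD, n = 3; limma adjusted p = 0.0470). With any 1 library left out its adjusted p was 0.0984 to 0.203 (limma), so the call rests on every library. Clu, a secreted chaperone gene of Sertoli cells, had 5.57 ± 2.14 and 27.7 ± 3.69 FPKM (limma adjusted p = 0.0853). Under TMM-type scaling Clu, Dcn and the smooth muscle actin gene Acta2 passed (limma adjusted p = 0.0411 for each). Under that scaling 1.02% of all tested rows passed in either direction. The median log2 differences of the Sertoli, Leydig and peritubular lists were 1.38, 1.63 and 1.84, against 0.13 over all tested rows. No marker with a row in these 3 lists was at 0 in all libraries. More cells of a type and more RNA per cell cannot be told apart in such samples, and the part of these cells in the difference of Cacnb4 was not tested.

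Haemoglobin genes lay the other way. The 4 haemoglobin rows, whose near-identical copies can share reads, summed to 50.4 to 110.0 FPKM in wild type, against 15.2 to 42.0 FPKM in SKO. In all 4 the SKO values lay below the wild-type ones, against 4.78% of all tested rows, and 0 passed the test. The macrophage markers Cd68 and Adgre1 overlapped between the genotypes, with sums of 0.638 to 5.98 and 0.837 to 3.48 FPKM. The endothelial markers are not analysed here. Of the neuronal and skeletal muscle markers, from tissues where beta subunits are abundant, 4 had a row, and they summed to 10.9 to 13.2 FPKM in wild type, against 12.1 to 18.6 FPKM in SKO. Most of this sum was Map2, a neuronal microtubule gene, at 9.78 ± 1.19 and 12.4 ± 2.88 FPKM (SD, n = 3), and the other 3 together had 2.02 to 3.44 and 1.88 to 3.49 FPKM. Both genes of this list that were tested, Map2 and Syt1, missed the threshold.

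The summed germ cell lists overlapped between the genotypes. The 7 of 10 spermatogonial markers with a row summed to 13.4 to 17.4 and 16.4 to 20.7 FPKM. The 10 spermatocyte markers summed to 100.2 to 197 and 135 to 216 FPKM. For the 8 elongating spermatid markers the sums were 106 to 184 and 137 to 216 FPKM. None of the single markers in the germ cell lists passed the test, against 0.128% of all tested rows. Of the 10 round spermatid markers, 4 had all SKO values above the wild-type ones (Spaca1, Spaca7, Izumo1 and Tssk1), against 10.9% of all tested rows, and 4 had an unadjusted p under 0.05, against 11% of all tested rows. Spaca1, an acrosome gene, had 96.4 ± 29.2 and 210 ± 80.7 FPKM (SD, n = 3; limma adjusted p = 0.416). The median log2 difference of the round spermatid list was 0.56, against 0.13 over all tested rows.

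**Figure D5:**
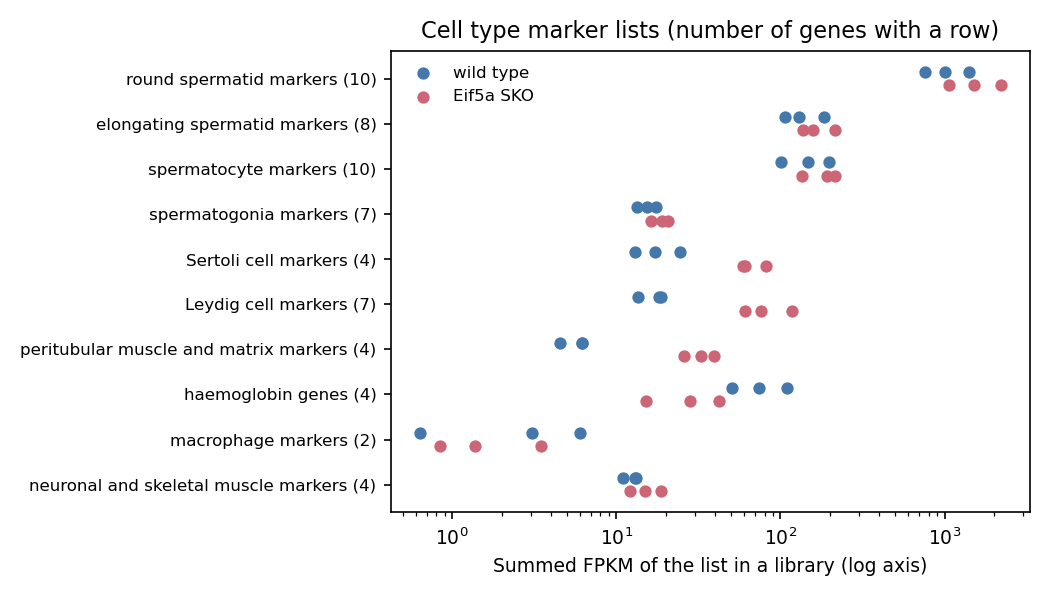
Summed FPKM of each cell type marker list, on a log axis, with 1 point per library (wild type blue, Eif5a SKO red) and the number of genes with a row in brackets. The Sertoli, Leydig and peritubular sums lie higher in all SKO libraries, the haemoglobin sum lies lower, and the other sums overlap.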

How the data were processed

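Ribosome footprints of round spermatids were analysed in 6 libraries, 3 wild type and 3 Eif5a SKO by the sample titles. The authors deposited FPKM, 1 value per gene symbol and library. Per the submitters' processing notes the build was mm10 and the tools were cutadapt, Bowtie2, STAR and Cufflinks. Their roles, the annotation and how reads with several matches were handled: not given in the sources used here. The file's cKO columns were matched to the SKO samples by replicate number. Rows whose mean over the libraries reached 1 FPKM were fitted with limma 3.58.1 in R 4.3.3 on log2(FPKM + 1) (lmFit, then eBayes with a trend). Tests were two-sided, p-values were adjusted by Benjamini-Hochberg over the tested rows, and the threshold was 0.05. Symbols were matched to RefSeq GRCm38.p6 by symbol (19305 rows) or synonym (81 rows), and 3384 rows were unmatched. Relative depth came from rows under 1 FPKM, of which 27.6% of 2907 had values in whole steps within 2% after depth correction, too few to recover reads.

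The members and lists were chosen with earlier results of these data known. Named are Eif5a and the beta subunits, from each list those past the threshold or otherwise the 3 of highest mean, the 3 nearest protein-coding genes on each side of Cacnb4, the 5 genes most like Cacnb4 and the 3 most like the next most covered subunit, leaving out clone names and repeated values. A few genes that this rule names are not reported here. Rows overlapping Cacnb4 and the marker genes named singly were added after their values were seen. Alternatives were pseudocounts of 0.1 and 5, no filter or a minimum mean of 5 FPKM, scaling by a trimmed mean of log ratios (TMM-type; 0.3 of the ratios and 0.05 of the levels trimmed), quantile normalization, protein-coding rows rescaled to equal sums, eBayes without a trend or robust, a block for the replicate number, and 1 library left out at a time.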

Additional observations from a re-analysis of the deposited data

How the results depend on the processing

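The log2 difference of Cacnb4 was 4.45 with a pseudocount of 0.1 and 1.35 with a pseudocount of 5, and under the other alternatives that gave a value it moved by less than the spread between replicates. It had no value with a mean of at least 5 FPKM, and neither had Cacnb1 or Cacnb2. Leaving out 1 library gave 2.71 to 3.09 for Cacnb4, -0.89 to -0.18 for Cacnb1 and -0.34 to 0.37 for Cacnb2. The number of rows called over the whole table, 20, became 4 with a pseudocount of 5, 5 with no filter, 86 with a mean of at least 5 FPKM, 63 with robust eBayes, 159 under TMM-type scaling, 446 under quantile normalization and 517 with protein-coding sums made equal, and 4 to 27 with 1 library left out. The shares of higher calls were 17 of 20 with deposited values, 119 of 159 under TMM-type scaling, 248 of 446 under quantile normalization and 315 of 517 with protein-coding sums. The replicate block gave 5 called rows and a Cacnb4 difference of 2.86 (SE 0.36). Deviations of same-numbered samples correlated at 0.0926, 0.0002 and 0.0243, so the numbers were not taken as pairs, and wild-type replicates 2 and 3 and SKO replicate 2 did not correlate best with their own numbers. The 0 calls among the channel, partner and MAGUK genes stayed at 0 in all alternatives. Over the whole table these alternatives called from 4 to 517 rows, so 0 in such short lists is not read as a lack of change. Their unadjusted limma p under 0.05 numbered 0 to 4, against 11% of all tested rows in the main fit. Differences near 0 turned their sign without a call: under TMM-type scaling Cacna1a (-0.0264), Cacng8 (-0.0673) and Tjp1 (-0.0686), under quantile normalization Cacng8 (-0.0722), Tjp1 (-0.106) and Bloc1s2-ps (-0.0099), and with protein-coding sums Cacna1a (-0.0692), Cacng8 (-0.12), Tjp1 (-0.128) and Bloc1s2-ps (-0.0468). With 1 library left out the ranges were -0.25 to 0.57 for Cacna1a, -0.0695 to 0.32 for Cacng8, -0.0374 to 0.71 for Stac3, -0.47 to 0.24 for Rims2, -0.49 to 0.12 for Ppp2r5d, -0.30 to 0.45 for Tjp1, -0.69 to 0.15 for Nmi and -0.049 to 0.35 for Bloc1s2-ps. The cause was not tested. In wild type the values of Cacnb4 lie near the floor and may rest on few reads, whose number is unknown.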
